A study of Mus musculus with 47 samples.

Results

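Myc, RNA polymerase II (RNAPII), trimethylated lysine 4 of histone H3 (H3K4me3) and acetylated lysine 27 of histone H3 (H3K27ac) were compared with each other in control liver, as mapped by ChIP-seq peak lists. For each antibody the 4 control lists were merged wherever peaks shared at least 1 bp, and a region was kept where at least 2 lists held a peak. This gave 45504 regions over the 4 antibodies from 16 of the 46 lists in the series, made up of 2198 Myc, 15820 RNAPII, 14952 H3K4me3 and 12534 H3K27ac regions. The same rule over all 46 lists gave 91621 regions. Positions are in mm9, and no gene is named because the gene table used here is of another build. For the same reason the liver label could not be checked against liver marker genes.

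All mice were of the FVB strain. Control 1 carried tet-Myc, a Myc transgene under a tetracycline-controlled promoter, with its expression off. Control 2 carried LAPtTA, a liver-specific transactivator that switches such a transgene on. Controls 3 and 4 were wild type. The tumours used for comparison carried both tet-Myc and LAPtTA, with the transgene either on or switched off by doxycycline food for 16 h. Tumours could express either the wild-type or a mutant form of the transgene, and the form was not given per tumour. No label stated that same-numbered lists of different antibodies came from the same animal. Bulk liver was used, so a region can carry 2 antibodies' peaks without both being in the same cell, and fewer cells with a mark cannot be told apart from a weaker mark in each cell.

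H3K4me3 marks the starts of genes that are active or poised, and H3K27ac marks active promoters and active enhancers. RNAPII gathers at promoters, runs through transcribed genes and is also found at active enhancers. Myc is a transcription factor that binds, with its partner Max, mainly to chromatin that is already open and carries active marks, and its level is low in resting adult liver.

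The lists differed in ways that touch the results. The Myc lists held 1953, 2816, 1002 and 8499 peaks in controls 1 to 4, and list 4 stood apart in width as well, so the Myc results that it moves are given without it as well. H3K27ac lists were shorter in the transgenic controls 1 and 2, with 9696 and 11202 peaks, than in the wild-type controls 3 and 4, with 14140 and 13573 peaks. H3K4me3 lists showed the same order, with 13581 and 12999 against 15011 and 15821 peaks. RNAPII lists showed the reverse order, with 20931 and 17031 against 15152 and 16190 peaks. Genotype and list length cannot be told apart in these controls. Chromosome Y peaks appeared in lists 1 and 3 of all 4 antibodies and in no list 2 or 4.

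Over their whole listed length, H3K27ac peaks were the widest and Myc peaks the narrowest. RNAPII and H3K4me3 peaks had nearly the same median width on that measure. The median H3K27ac peak spanned 5635, 5982, 7114 and 7822 bp in controls 1 to 4, against 2423, 2320, 2506 and 2460 bp for H3K4me3. Every H3K27ac list lay above every H3K4me3 list. The mean difference was 4211 bp (6638 ± 1011 against 2427 ± 79.2 bp, SD, n = 4; two-sided exact permutation p = 0.0286, the smallest this design allows; adjusted over 6 antibody pairs 0.0343). RNAPII medians were 2782, 2170, 2305 and 2562 bp, and those lists also lay wholly below the H3K27ac lists (difference -4183 bp, exact p = 0.0286, adjusted 0.0343). RNAPII and H3K4me3 differed by 27.5 bp, which was within the spread between lists (exact p = 0.886).

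The width of a histone peak depended on which of its parts was measured. The histone lists were in a gapped layout, in which 1 broad span holds 1 or more narrower inner blocks. An H3K4me3 span held 1.41 ± 0.232 blocks that filled 43.7% ± 3.35 of its length (SD, n = 4). An H3K27ac span held 2.10 ± 0.118 blocks that filled 14.0% ± 4.24. The median block was 502 bp for H3K27ac and 832 bp for H3K4me3. The order of the marks thus turned when blocks were measured in place of spans (difference -330.0 bp, exact p = 0.143). RNAPII lists had no blocks. Set against histone blocks, the mean RNAPII median was higher by 1953 bp than that of H3K27ac and by 1623 bp than that of H3K4me3 (exact p = 0.0286 for each, not adjusted).

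The upper end of the widths separated RNAPII from H3K4me3 although their medians over whole peaks did not. The 90th percentile of RNAPII peak width was 14704, 11979, 13460 and 14605 bp in the 4 lists, and that of H3K4me3 was 5031, 4689, 5656 and 5749 bp. The longest single RNAPII peak of a list ran for 147814 to 166111 bp, and the longest H3K4me3 peak for 25311 to 41240 bp.

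**Figure D1:**
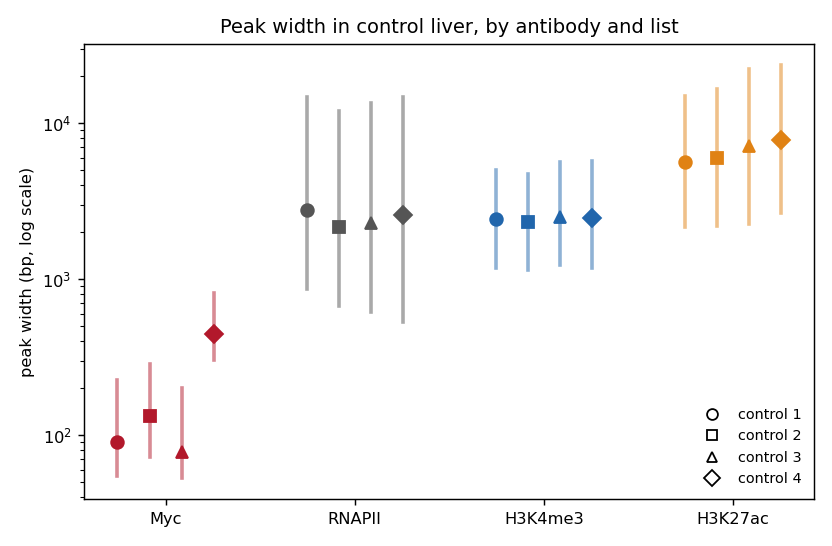
Width of peaks (bp, log axis) for each antibody in the 4 control lists. Symbols are list medians and bars run from the 10th to the 90th percentile of the peaks of that list. Myc list 4, at 444 bp, lies above the other Myc lists, and the RNAPII bars reach higher than those of H3K4me3 at nearly the same medians.

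The antibodies also differed in how much of the genome they covered. H3K27ac peaks covered 115.9 ± 40.2 Mb and RNAPII peaks 94.6 ± 20.4 Mb, which overlapped between lists (exact p = 0.343). H3K4me3 peaks covered 42.6 ± 6.55 Mb, below every list of both (exact p = 0.0286, adjusted 0.0343 for each). RNAPII lists held more peaks than H3K27ac lists, 17326 ± 2523 against 12153 ± 2074 (exact p = 0.0286, adjusted 0.0429), with 14353 ± 1293 for H3K4me3. Of the span of chromosomes reached by any peak of the series, 2637 Mb, the peaks of a list took 4.39% for H3K27ac, 3.59% for RNAPII, 1.62% for H3K4me3 and 0.0502% for Myc on average. The Myc share was 0.0103% without list 4, which alone took 0.170%.

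By the share of regions found in all 4 lists, H3K4me3 was the most repeatable of the 4 antibodies. Of its 14952 regions 12185, or 81.5%, had a peak in all 4 lists. The share was 71.1% for RNAPII (11246 regions), 58.5% for H3K27ac (7331 regions) and 14.7% for Myc (324 regions). Regions held by exactly 2 lists followed the numbers. Lists 3 and 4 were the pair behind 80.8% of such H3K4me3 regions and 79.3% of such H3K27ac regions, while lists 1 and 2 were behind 52.5% of such RNAPII regions. Of the 8082 Myc regions seen in 1 list only, 6597 came from list 4.

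The commonest state of a marked locus was RNAPII with both histone marks. Regions of all 4 antibodies merged into 17610 loci over 236.3 Mb. RNAPII, H3K4me3 and H3K27ac without Myc met at 7718 loci, or 43.8%, and a further 1274 loci, or 7.23%, held all 4 antibodies. Without Myc list 4 these were 8444 and 548 of 17545 loci. Loci with 1 antibody were mainly H3K4me3 (2412 loci) and RNAPII (1783), then H3K27ac (1143) and Myc (319). H3K4me3 with H3K27ac but no RNAPII was rare, with 375 loci. The loci with all 4 antibodies were long, with a median of 21735 bp against 9787 bp for those with all but Myc and 2303 bp for H3K4me3 alone. A longer locus has more room for any peak, and the part that length played in these counts was not tested.

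**Figure D2:**
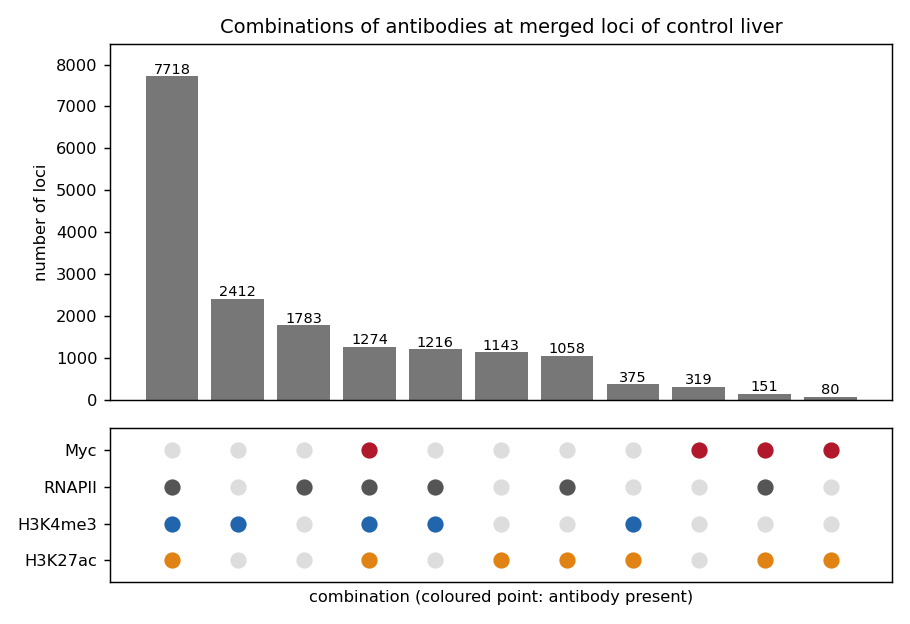
Number of merged loci in control liver for each combination of antibodies. Bars give loci and coloured points below them mark the antibodies present, for the 11 combinations with at least 80 loci. RNAPII with both histone marks is the tallest bar, at 7718 loci.

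Most peaks of either histone mark lay on RNAPII. In controls 1 to 4, 85.8%, 81.9%, 76.3% and 76.1% of H3K4me3 peaks overlapped an RNAPII peak of the same number. For H3K27ac the shares were 94.7%, 85.7%, 76.5% and 79.7%. H3K27ac stood higher in all 4 numbers, by 4.11 percentage points on average (84.1% ± 7.98 against 80.03% ± 4.70, SD, n = 4), but the lists overlapped and the difference was within their spread (exact p = 0.429). Its direction turned when at least 50% of a peak had to be covered, with 42.7% for H3K27ac and 62.6% for H3K4me3 (exact p = 0.0857), so the wide H3K27ac peaks touched RNAPII more often than RNAPII filled them. By length, RNAPII covered 64.2% ± 5.15 of H3K4me3 bases and 44.0% ± 11.8 of H3K27ac bases.

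Seen from the polymerase, most RNAPII peaks carried each mark. RNAPII peaks overlapped H3K4me3 in 56.0%, 63.1%, 74.3% and 72.4% of cases and H3K27ac in 52.4%, 66.9%, 82.0% and 77.3%. List 1, the longest RNAPII list, was lowest for both. The mean shares were 66.4% ± 8.52 and 69.6% ± 13.1, and the difference within a list, 3.20 points, was positive in 3 of 4 lists (exact sign-flip p = 0.25; 0.13 is the smallest 4 lists allow). It was 5.45 points without list 1 and 1.72 points without list 3. Both marks were present at 54.6% ± 14.4 of RNAPII peaks, H3K4me3 alone at 11.9% ± 5.91, H3K27ac alone at 15.1% ± 2.31 and neither at 18.5% ± 7.31.

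Most peaks of each mark overlapped the other mark. H3K27ac peaks overlapped H3K4me3 in 76.3%, 73.3%, 73.9% and 76.7% of cases, a narrow range of 75.05% ± 1.74. H3K4me3 peaks overlapped H3K27ac in 57.7%, 66.7%, 76.3% and 73.1% of cases, with the low values in the 2 lists whose H3K27ac partner list was short. The overlap was unequal in bases, since H3K27ac covered 72.4% ± 6.99 of H3K4me3 bases and H3K4me3 covered 27.8% ± 4.17 of H3K27ac bases.

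**Figure D3:**
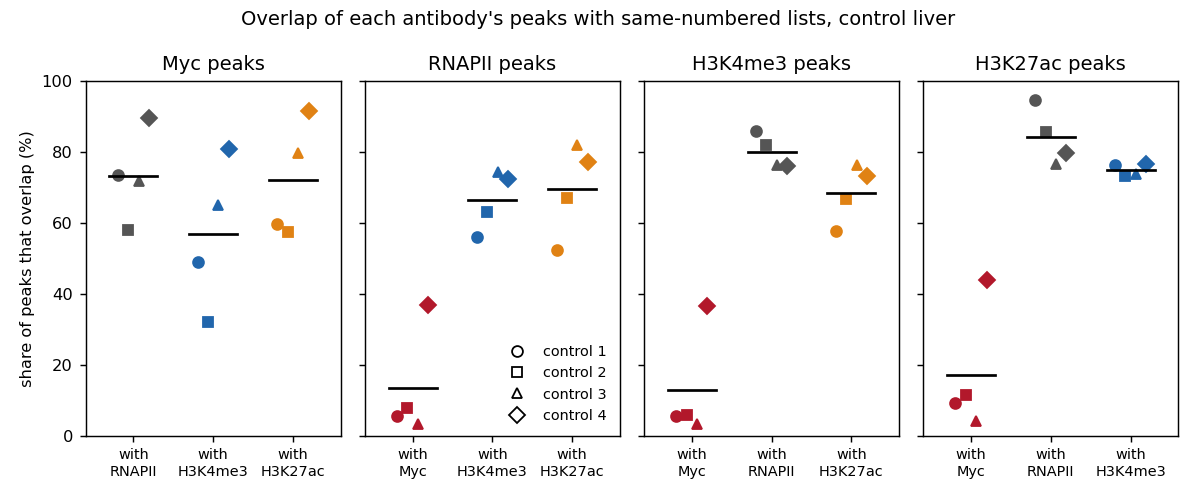
Share of peaks (%) of each antibody that overlap, by at least 1 bp, a peak of another antibody in the list of the same number. Points are the 4 control lists and black lines their means. The shares with RNAPII range from 76.1% to 94.7% for the histone marks, and every share with Myc has list 4 far above the others.

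RNAPII was found where both marks met far more often than where 1 mark stood alone. H3K4me3 peaks at H3K27ac carried RNAPII in 98.1%, 94.6%, 91.9% and 92.4% of cases, and the other H3K4me3 peaks in 69.0%, 56.6%, 25.8% and 31.8%. The first share exceeded the second in every list, and the mean difference was 48.5 ± 17.7 points (exact sign-flip p = 0.13, the smallest possible; positive in 4 of 4). H3K27ac peaks at H3K4me3 carried RNAPII in 98.5%, 95.2%, 93.1% and 93.9% of cases, and the other H3K27ac peaks in 82.3%, 59.6%, 29.6% and 32.8% (difference 44.1 ± 22.5 points, same p). As 4 lists against 4 without pairing, the exact permutation p was 0.0286 for each mark. Both shares come from peaks of the same lists, so that p ignores a pairing and no conclusion rests on it.

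Both differences were smaller in lists 1 and 2, the transgenic controls, than in lists 3 and 4, the wild-type controls. Genotype and list length cannot be told apart here either. Peaks with a single mark had RNAPII more often in lists 1 and 2, where the H3K27ac lists were short and the RNAPII lists long, than in lists 3 and 4. Within the wild-type pair the differences were 63.4 and 62.3 points. Among peaks scored above the list median they were 14.0 points for H3K4me3 and 24.2 points for H3K27ac, where 85.1% and 74.7% of the single-mark peaks carried RNAPII. Among peaks held to the same width limits, the 25th to the 75th percentile, they were 43.8 and 47.6 points.

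For RNAPII and the histone marks, regions with both of the other 2 partners, with or without Myc, were in all 4 lists more often than regions with neither. H3K4me3 regions with RNAPII and H3K27ac numbered 10630, of which 93.5% had a peak in all 4 lists, against 38.8% of the 2430 with neither. RNAPII regions with both marks (10010) were in all 4 lists in 90.3% of cases and those with neither (1808) in 27.5%. For H3K27ac the shares were 66.9% of 9520 with RNAPII and H3K4me3 and 17.6% of 1223 with neither. Myc regions went the other way, with 11.2% of the 1205 with all 3 partners and 19.4% of the 319 with none in all 4 lists. The Myc lists were unequal here. Lists 1 to 4 held 629, 741, 446 and 1136 of the 1205 and 247, 296, 88 and 219 of the 319. Of the 1205, 798 were in exactly 2 lists. The order without list 4 was not tested.

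The authors' peak score, used here only to rank peaks within a list, ordered the overlaps of the histone marks. Each list was split into 4 equal classes by score. From the lowest to the highest class of H3K4me3 score, the share with RNAPII went from 44.7% ± 12.01 through 79.2% ± 7.45 and 96.8% ± 1.64 to 99.3% ± 0.958 (SD, n = 4). The share with H3K27ac went from 36.2% ± 4.88 to 92.9% ± 7.80. For H3K27ac peaks the share with RNAPII went from 61.4% ± 21.2 to 99.1% ± 0.710, and that with H3K4me3 from 50.6% ± 7.14 to 95.0% ± 2.99. The highest class exceeded the lowest in 4 of 4 lists in each case.

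Myc peaks did not share this order. From the lowest to the highest score class, Myc peaks with RNAPII went from 78.3% to 62.1% in list 1, from 65.6% to 51.6% in list 2 and from 79.7% to 56.8% in list 3. In list 4 the values were 90.4% and 90.5%. The top-scored Myc peaks of lists 1 to 3 were thus less often at RNAPII than their weakest ones, while list 4 had no such slope (difference over 4 lists -13.3 ± 9.67 points, exact sign-flip p = 0.25).

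**Figure D4:**
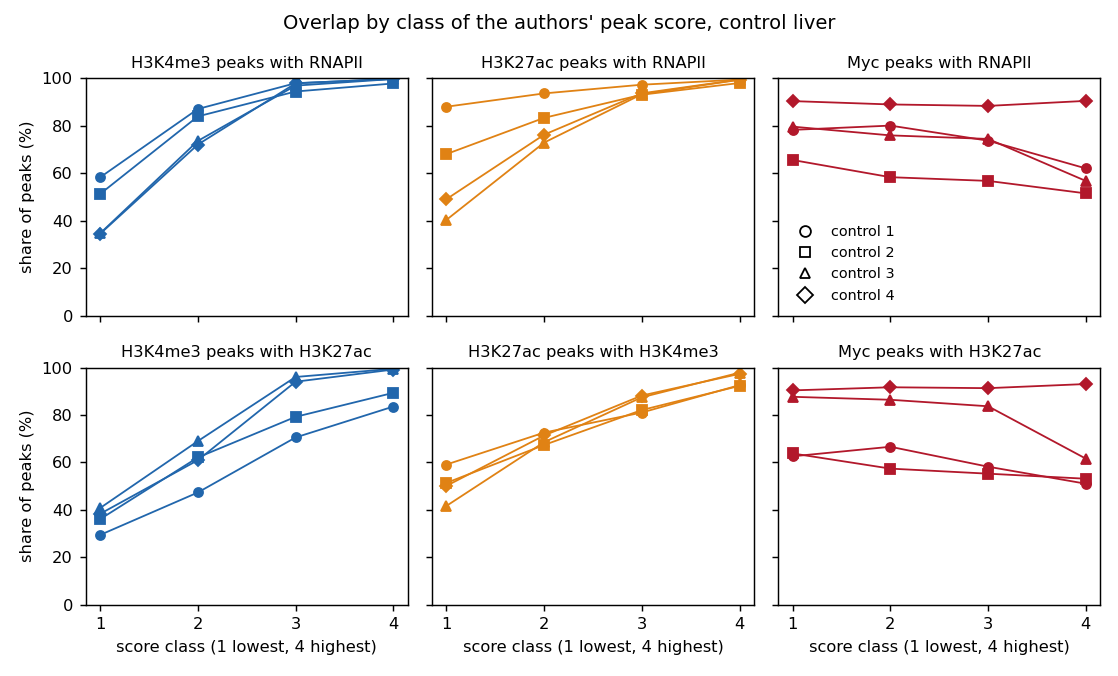
Share of peaks (%) with a partner by class of the authors' score within each list (4 equal classes, 1 lowest, 4 highest). Lines are the 4 control lists. Histone shares lie between 83.5% and 99.8% in the highest class, and Myc shares are lower there than in the lowest class in lists 1 to 3.

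Overlap varied with peak width for both marks. H3K4me3 peaks under 1 kb carried RNAPII in 31.9% ± 10.4 of cases, those of 1 to 2 kb in 71.4% ± 6.399, those of 2 to 4 kb in 86.4% ± 4.75, those of 8 to 16 kb in 96.3% ± 1.90 and those of 16 kb or more, 10 to 53 peaks per list, in 88.6% ± 4.17. H3K27ac peaks under 1 kb, 36 to 85 per list, also had RNAPII least often, in 67.2% ± 10.7 of cases. Above that width their shares had no steady order: 87.7% ± 4.75 at 1 to 2 kb, 81.4% ± 12.1 at 8 to 16 kb and 89.3% ± 8.50 at 16 kb or more. Their overlap with H3K4me3 went down with width, from 94.0% ± 2.30 at 1 to 2 kb to 64.8% ± 1.81 at 8 to 16 kb, and was 72.3% ± 2.35 at 16 kb or more.

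Where the marks met, most H3K4me3 spans sat inside H3K27ac spans. The inner blocks of H3K27ac filled only 14.0% of its spans on average, and the arrangement by blocks was not tested. Of H3K4me3 peaks that overlapped H3K27ac, 71.0% ± 5.67 lay wholly inside it, and 5.22% ± 1.54 of overlapping H3K27ac peaks lay wholly inside H3K4me3. In pairs of 1 peak each, H3K27ac ran past H3K4me3 on both sides in 68.0% ± 5.50 of cases, with a median overhang of 1963 ± 491 bp on the longer side and 288 ± 141 bp on the shorter. RNAPII was placed differently around H3K4me3: it ran past on both sides in 17.7% ± 4.07 of pairs, on 1 side in 38.9% ± 2.93 and stayed inside in 43.4% ± 6.91. RNAPII peaks passed the H3K4me3 peak on 1 side more often than on both sides in every list. Their median overhang was short, at 310, 79, 0 and 134 bp on the longer side in lists 1 to 4 and 0 bp on the shorter side. The chromatin fragments were of about 300 bp.

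Most H3K27ac peaks overlapped a single peak of each partner, with each partner counted separately. Exactly 1 H3K4me3 peak overlapped 69.8% ± 1.69 of H3K27ac peaks, and 2 or more overlapped 5.30% ± 1.42. Exactly 1 RNAPII peak overlapped 69.8% ± 4.799 of them, and 2 or more overlapped 14.3% ± 3.19. H3K27ac peaks without H3K4me3 were far from it, with a median distance to the nearest H3K4me3 peak of 24883 ± 2058 bp, and 24.6% ± 2.56 lay within 10 kb of one. RNAPII peaks without H3K4me3 were nearer, at 15565 ± 1703 bp, with 37.9% ± 1.95 within 10 kb.

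RNAPII regions without either histone mark were longer than those with both. The 1808 RNAPII regions with neither mark had a median of 7673 bp, against 4135 bp for the 10010 with both marks and 2168 bp for the 1268 with H3K4me3 only. Among those with both marks, the 1153 that also held Myc were longer still, with a median of 9383 bp, and the 8857 without Myc had 3902 bp. In single lists the medians of unmarked RNAPII peaks were 4226, 3794, 4648 and 3794 bp and those of peaks with both marks 3044, 2295, 2246 and 2632 bp, so unmarked peaks were wider in every list. H3K27ac regions without H3K4me3 were longer than those with it, 12369 against 8565 bp. H3K4me3 regions showed the opposite for RNAPII, with 3443 bp where it was present and 2241 bp where it was not.

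With histone peaks taken as whole spans, Myc peaks of control liver lay mostly at H3K27ac and RNAPII. Shares with H3K27ac were 59.6%, 57.4%, 79.8% and 91.6% and with H3K4me3 49.0%, 32.1%, 65.1% and 80.8%. H3K27ac exceeded H3K4me3 in 4 of 4 lists, by 15.4 ± 6.91 points (exact sign-flip p = 0.13, the smallest possible), and by 16.9 points without list 4. The difference was -2.04 points when histone blocks replaced spans, with mean shares of 43.1% for H3K27ac and 45.2% for H3K4me3. Shares with RNAPII were 73.6%, 58.1%, 71.8% and 89.6%, and their differences from the shares of H3K4me3 (-6.77 points, exact p = 0.4) and H3K27ac (-10.9 points, exact p = 0.2) were within the spread between lists. Without list 4 they were -13.5 and -17.8 points (exact p = 0.1 for each, the smallest 3 lists against 3 allow), and without list 2 -1.08 and -5.30 points. Overlapping Myc peaks lay wholly inside their partner in 97.7% to 99.7% of cases on average.

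At the level of regions, 1778 of the 2198 Myc regions (80.9%) overlapped H3K27ac, 1654 (75.3%) RNAPII and 1280 (58.2%) H3K4me3. All 3 partners were present at 1205 (54.8%), and 319 (14.51%) had none. Without list 4 there were 1182 Myc regions, of which 72.2% overlapped H3K27ac, 64.4% RNAPII and 46.02% H3K4me3, and 21.5% had no partner. The order of the partners was kept and each share was lower.

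In 3 of 4 lists Myc was found most often where RNAPII had both marks. In list 4 Myc lay at 52.2% of RNAPII peaks with both marks, at 16.8% of those with H3K27ac only, at 11.8% with H3K4me3 only and at 1.91% with neither. Lists 1 to 3 had 8.80%, 8.99% and 4.45% at peaks with both marks and 2.27%, 3.59% and 0.273% at peaks with neither. In list 2 the highest share, 12.8%, was at peaks with H3K27ac only. RNAPII regions with Myc and both marks numbered 1153, and 450 without Myc list 4, with medians of 9383 and 15338 bp.

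Chromosome X stood out among the chromosomes for its lack of H3K27ac, a comparison chosen after the values were seen. H3K4me3 peaks on X overlapped H3K27ac in 8.24%, 18.1%, 44.9% and 37.3% of cases, against 59.1%, 68.1%, 77.2% and 74.3% on the autosomes. X lay below the autosomes in every list and no X value reached the lowest autosomal value (difference -42.5 ± 9.34 points, exact sign-flip p = 0.13, the smallest possible). X was the lowest of chromosomes 1 to 19 and X in 4 of 4 lists, and the means of the autosomes ran from 65.7% on chromosome 2 to 73.2% on chromosome 19. The H3K27ac lists held 32, 72, 203 and 185 X peaks, or 0.943% ± 0.543 of their peaks. X took 2.91% ± 0.167 of H3K4me3 peaks and 2.06% ± 0.170 of RNAPII peaks.

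The other overlaps on X differed in both directions. RNAPII peaks on X carried H3K27ac in 34.4% ± 23.9 of cases against 70.4% ± 13.0 on autosomes, but carried H3K4me3 more often, in 83.5% ± 5.50 against 66.1% ± 8.57. H3K4me3 peaks on X had RNAPII in 70.1% ± 7.80 of cases against 80.3% ± 4.60. The few H3K27ac peaks on X lay at H3K4me3 in 94.0% ± 2.25 of cases against 74.9% ± 1.75. Each difference held in 4 of 4 lists, with an exact sign-flip p of 0.13. Scores moved with it: the median H3K4me3 score was 4825, 3617, 8142 and 8133 on X and 8297, 6030, 15631 and 15258 on autosomes, and the part of signal strength in the X difference was not tested. Among H3K4me3 peaks of 2 to 4 kb the difference was -43.9 points. Lists with and without chromosome Y peaks both showed it.

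**Figure D5:**
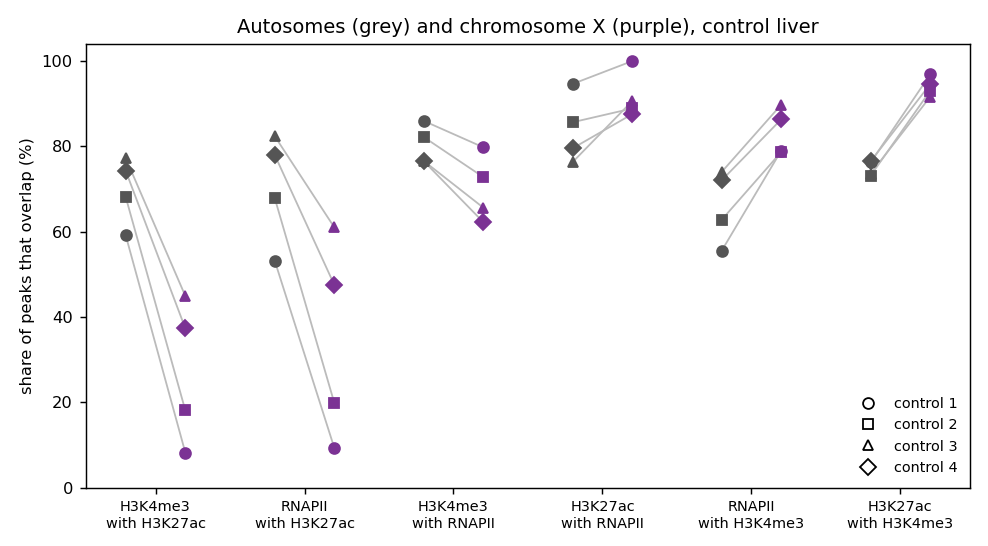
Share of peaks (%) that overlap a partner on autosomes (grey) and on chromosome X (purple) in each of the 4 control lists, joined by lines. Shares with H3K27ac are lower on X, between 8.24% and 61.0%, while RNAPII and H3K27ac peaks on X carry H3K4me3 more often than on autosomes.

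In tumours with tet-Myc on, the mean gap between X and the autosomes was smaller for the share of H3K4me3 peaks with H3K27ac. The contrast did not pass the threshold after adjustment. The H3K27ac lists of these tumours held 280, 228, 244 and 201 X peaks, against 32, 72, 203 and 185 in controls 1 to 4. The part of list length in the contrast was not tested. H3K4me3 peaks on X overlapped H3K27ac in 50.6% ± 7.74 of cases there, and X minus autosomes was -24.3 ± 4.83 points against -42.5 points in control liver (exact permutation p = 0.0286, adjusted over 6 antibody pairs 0.171).

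The 3 longest regions present in all 4 lists were taken for each of 8 classes. Of the 324 constant Myc regions, 92 had all 3 partners in all lists. The longest of these was chr5:90890396-90897826, 7431 bp, with 2 to 14 Myc peaks per list that covered 53.4%, 59.8%, 6.002% and 99.3% of it. The region lay wholly under RNAPII in every list. The next, chr19:5839380-5845765, 6386 bp, lay wholly under RNAPII, H3K4me3 and H3K27ac in every list, with Myc over 39.9%, 45.6%, 15.4% and 100.0%. In both, list 3, the shortest Myc list, was lowest and list 4 highest.

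Constant RNAPII regions with both marks numbered 6076, or 54.0% of those in all 4 lists. The longest, chr14:26269970-26493920 with 223951 bp, was covered by RNAPII over 93.5% ± 9.44 of its length, by H3K27ac over 45.3% ± 8.42 and by H3K4me3 over 5.02% ± 2.66. RNAPII without H3K4me3 or H3K27ac in any list was found at 415 constant regions, and Myc was not excluded from this class. The longest of these, chr14:21951286-22175240 with 223955 bp, was of nearly the same length, had RNAPII over 96.4%, 97.5%, 42.2% and 76.5% in 6 to 15 peaks and had no peak of the other antibodies in any list. A shorter one, chr9:121322737-121389016 with 66280 bp, was RNAPII over 97.4% ± 2.47 of its length.

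H3K27ac with RNAPII and no H3K4me3 in any list was found at 293 constant regions with a median of 18007 bp. The longest was chr13:60754677-60846832, 92156 bp, with H3K27ac over 57.9%, 35.8%, 94.7% and 93.6% and RNAPII over 95.3%, 94.7%, 11.7% and 75.5%. Lists 3 and 4 were high for H3K27ac there, and list 3 was low for RNAPII. H3K27ac without RNAPII or H3K4me3 in any list was found at 89 constant regions. The longest was chr17:84610705-84700126 with 89422 bp, covered by H3K27ac over 8.58%, 12.5%, 97.5% and 89.3%. H3K4me3 without RNAPII or H3K27ac in any list was found at 609 constant regions with a median of 2362 bp, 34 of them on chromosome X. The longest of these was chr17:95207680-95228998, 21319 bp, covered by H3K4me3 over 39.1%, 17.9%, 65.6% and 100.0%. Myc was not excluded from either class. H3K4me3 with H3K27ac and no RNAPII in any list was left at 25 constant regions, with a median of 2026 bp.

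Against tumours, the mean shares of histone peaks with RNAPII were higher in control liver, but no contrast passed the adjusted threshold. H3K4me3 peaks with RNAPII were 80.03% ± 4.70 in control liver and 75.2% ± 3.21 in 4 tumours with tet-Myc on (exact p = 0.229, adjusted over 12 contrasts 0.411). In 3 tumours with the transgene off they were 58.7% ± 5.42, below every control list (exact p = 0.0286, adjusted 0.171). For H3K27ac peaks the shares were 84.1% ± 7.98, 76.4% ± 2.27 (exact p = 0.0571, adjusted 0.171) and 63.7% ± 4.79 (exact p = 0.0286, adjusted 0.171). The RNAPII lists of switched-off tumours held 11916 to 14834 peaks, fewer than any control list. Their H3K4me3 lists held 18502, 18639 and 19876 peaks, more than any control list, and 10338, 10295 and 12903 of these overlapped RNAPII. In controls 1 to 4 the H3K4me3 peaks with RNAPII numbered 11653, 10649, 11450 and 12041. List length and treatment cannot be told apart here. H3K27ac peaks with H3K4me3 were 75.05% ± 1.74 in control liver and 72.8% ± 4.09 in tumours with tet-Myc on (exact p = 0.4). With the wild-type controls alone, the differences from tumours with tet-Myc on were 1.02 points for H3K4me3 and 1.67 points for H3K27ac with RNAPII, against 4.85 and 7.70 with all 4 controls. With lists cut to equal numbers of peaks the difference from tumours with tet-Myc on turned to -3.33 points for H3K4me3 with RNAPII and -3.25 points for H3K27ac with RNAPII.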

How the data were processed

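ChIP-seq was done on sonicated chromatin of about 300 bp, per the labels' protocols. The submitters' processing notes name BWA 0.6.2, SAMtools and build mm9. The caller and its settings are not stated there. The authors deposited 1 peak list per library. Myc and histone lists carry the authors' score, whose scale is not stated and which was used only to rank peaks within a list. No score was read from the RNAPII lists, of which only the positions were used. No read counts were given, so depth is unknown, and no peak means only that none was listed. The 4 control lists of an antibody were merged with Python 3.11.15, numpy 2.4.6 and pandas 2.3.3. Overlap was 1 bp with the same-numbered list. Lists were compared by two-sided exact permutation, or sign-flip within a list, with Benjamini-Hochberg adjustment within each family; steps were tested on simulated data. Plots used matplotlib 3.10.9. Named regions are the 3 longest per class in all 4 lists. Sets and tests were chosen with earlier results of these data known. Nothing in the labels says that lists of a group came from separate animals beyond the differing genotypes, so a p-value covers the spread between lists only, and that spread may be technical. Coordinates count from 1. The input library was not analysed here.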

Additional observations from a re-analysis of the deposited data

Results flagged for a closer look

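Of 27 groups of 4 values tested over all antibodies, 4 had a value far from the others, and each was that of Myc list 4. Chance flags about 1 in 20 groups, but these 4 values come from the same list and are not separate draws. Its peaks covered 4.47 Mb, against 0.113 to 0.460 Mb in lists 1 to 3. Its median peak width was 444 bp, against 78, 90 and 132 bp. Its narrowest peak was 293 bp, against 53 to 71 bp. It had Myc at 37.0% of RNAPII peaks, against 3.41% to 7.81%, and at 36.7% of H3K4me3 peaks, against 3.17% to 5.83%. The part of the peak caller's settings or of depth in this was not tested.

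The share of Myc peaks with H3K27ac minus that with H3K4me3 pointed in opposite directions in control liver and in switched-off tumours. It was 15.4 points in control liver, positive in 4 of 4 lists, and -7.44 points in switched-off tumours, negative in 3 of 3. The difference between them was 22.8 points (exact permutation p = 0.0286, adjusted over 10 such tests 0.286). The switched-off Myc lists held 98, 331 and 239 peaks. With histone blocks in place of spans the value in control liver was -2.04 points. H3K27ac peaks of a control list also took more of the span of chromosomes reached, 4.39% on average against 1.62% for H3K4me3. The part of this in the shares was not tested.

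The gap between chromosome X and the autosomes in the share of H3K4me3 peaks with H3K27ac was wider in control liver than in tumours with tet-Myc on, by -18.2 points (exact permutation p = 0.0286, adjusted over 6 pairs 0.171). Within control liver it was widest in transgenic lists 1 and 2, whose H3K27ac lists held only 32 and 72 X peaks.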

How the results depend on the processing

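Of 173 alternatives to the 15 tested results, 149 kept the direction. With 3 lists left, the smallest exact p is 0.1 against 3 lists and 0.25 for sign-flips, so lost calls there say nothing of stability. Replicate numbers were not taken as pairs: deviations of same-numbered lists correlated at -0.0840 to 0.128, although H3K4me3 and H3K27ac lists shared a track identifier at all 4 numbers and each H3K4me3 list correlated best with the H3K27ac list of its own number, as did each RNAPII list. With the replicate block (exact sign-flip) the H3K27ac minus H3K4me3 width (4211 bp) and RNAPII minus H3K27ac width (-4183 bp) had p = 0.13, the smallest possible. Without the pairing, RNAPII at peaks with both marks gave 48.5 points for H3K4me3 and 44.1 for H3K27ac. The X difference was -42.5 points, and each had an exact permutation p = 0.0286. Both shares in each of these come from the same lists, so that p ignores a pairing and no conclusion rests on it.

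Leaving out 1 control number gave widths of 3827 to 4544 bp (H3K27ac minus H3K4me3), -83.0 to 103.7 bp (RNAPII minus H3K4me3) and -4627 to -3825 bp (RNAPII minus H3K27ac). Leaving out 1 library gave 4.196 to 10.2 points for control minus tumour H3K27ac with RNAPII (exact p = 0.0286 without control 3), and 1182 to 1939 Myc regions, with 1182 without list 4 and 1386 without list 2. In wild-type livers alone the widths were 4985, -49.5 and -5035 bp, Myc minus H3K4me3 with RNAPII was 4.49 points, Myc minus H3K27ac 2.58, and control minus tumour H3K4me3 with H3K27ac 0.489.

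With blocks the widths were -330.0, 1623 and 1953 bp, H3K27ac minus H3K4me3 with RNAPII -0.0482 points, RNAPII with H3K27ac minus H3K4me3 -0.686, and Myc with H3K27ac minus H3K4me3 -2.04. With the widest peaks in equal number, which by construction removes more narrow peaks from the longer RNAPII lists, RNAPII minus H3K4me3 was 1068 bp and RNAPII minus H3K27ac -3016 bp (exact p = 0.114). With at least 50% of a peak covered, H3K27ac minus H3K4me3 with RNAPII was -19.9 points, Myc minus H3K4me3 10.4, Myc minus H3K27ac 30.3, and control minus tumour H3K27ac with H3K4me3 -2.06. With peak centres these were -13.7, 3.58, 17.3 and -0.695. Above the median score the first 3 were -1.29, -30.0 and -28.7, the last 2 at an exact p = 0.0286. In the same width limits the first was -3.38. With partners in 4 lists RNAPII with H3K27ac minus H3K4me3 was -6.70. With equal numbers control minus tumour was -3.33 for H3K4me3 with RNAPII, -3.25 for H3K27ac with RNAPII and -3.04 for H3K27ac with H3K4me3. Causes of these shifts were not tested.

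With at least 50% of a region covered, chosen after seeing the data, 71.2% of H3K4me3 regions had RNAPII, 49.5% of H3K27ac regions RNAPII, 33.9% of H3K27ac regions H3K4me3 and 50.3% of RNAPII regions H3K4me3. With regions in all 4 lists, 57.6% of H3K4me3 regions had H3K27ac, 84.3% of H3K27ac regions H3K4me3, 82.9% of RNAPII regions H3K4me3 and 65.0% of RNAPII regions H3K27ac. The lists carry no depth, so a missing peak sets no limit on binding.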

Other observations

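Regions were sparsest on chromosome X, among chromosomes 1 to 19 and X, for all 4 antibodies, at 0.973 per Mb for H3K27ac, 2.66 for H3K4me3, 2.14 for RNAPII and 0.120 for Myc. On chromosome 11 the values were 7.63, 9.79, 9.90 and 1.24 per Mb. Myc lists 1 to 3 held 20, 18 and 20 peaks on the mitochondrial chromosome and list 4 held 3.

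Myc centres inside H3K4me3 peaks lay in the central one of 3 equal parts in 42.7% ± 5.27 of cases (SD, n = 4). They lay in an inner block in 67.6% ± 20.3 of cases, where blocks made up 45.6% ± 5.70 of the length of those peaks.

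Shares hardly depended on whether the partner list carried the same number. Same-numbered minus other-numbered shares ran from -1.07 points (H3K4me3 peaks with Myc) to 2.03 points (Myc peaks with RNAPII) over the 12 ordered pairs.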
